A study of Mus musculus with 16 samples.

Results

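The genes described here are 36 germ cell genes: testis-specific isoforms of housekeeping proteins, piRNA pathway components, meiotic recombination and cohesion factors, germ cell regulators, and proteins of the gamete surface or of germ cell structure. They are a list of named genes, drawn up with earlier results of these data known, so their shares of calls below are descriptions. All 36 were found among the 22180 genes measured, each with 1 probe set. RNA levels were measured on Affymetrix arrays in 2 progenitors of the mononuclear phagocyte lineage, macrophage and dendritic cell progenitors (MDPs) and the common monocyte progenitors (cMoPs) that descend from them. Both were sorted from the bone marrow of mice aged 8 to 12 weeks, MDPs as Lin- cKit-high CD115+ CD11b- Ly-6C- cells and cMoPs as the Ly-6C+ counterpart. The control mice were Dnmt1+/+ and the others Dnmt1c/chip, a genotype that pairs a null with a hypomorphic allele of the maintenance DNA methyltransferase Dnmt1, so that the whole animal is affected and not a single cell type. There were 4 arrays in each of the 4 groups, made from 300 ng of RNA each. The labels do not say whether replicates came from separate animals or from pools, so p-values measure the spread between these samples, which may be technical.

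Germ cell genes are the classic genes that somatic cells hold silent through DNA methylation of their promoters. Many of them carry promoters rich in CpG, the dinucleotide that Dnmt1 keeps methylated when DNA is copied, and germ cells lose that methylation during development. piRNAs are small RNAs bound by Piwi proteins that silence transposons in the germline, with tudor-domain proteins as the scaffolds of the granules where they are made. Another layer of repression in somatic cells is a complex that holds E2F6 and the MAX and MGA proteins, which binds many meiotic and germ cell promoters.

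Dnmt1 itself was lower in c/chip than in control cells, 2.15-fold in MDPs (log2 difference −1.10, SE 0.14, limma adjusted p = 0.000348) and 1.87-fold in cMoPs (−0.91, SE 0.14, adjusted p = 0.00814). The median over all genes lay between 3.64 and 3.76 on the 16 arrays, in log2 units, and serves below as the line between dim and brighter genes. Of the 4 c/chip MDP arrays, replicates 1, 3 and 4 had Xist at 9.51 to 10.65 beside a mean level of 5.27 to 6.42 for Y-linked transcripts, whereas replicate 2 had Xist at 4.26 and Y-linked transcripts at 6.73. Where both kinds of transcript came from was not tested. In both control groups replicates 1 and 2 had Xist at 10.79 to 11.36, and replicates 3 and 4 had Y-linked transcripts at 6.97 to 7.14. In c/chip cMoPs replicate 1 had Xist at 10.9, and replicates 2, 3 and 4 had Y-linked transcripts at 6.70 to 7.35. The genotype groups were thus not balanced in these transcripts in either progenitor. The genotype differences in MDPs of Slc25a31, Rpl39l, Tex14, Adam2, Tdrkh, Rec8 and Msh5 are also given with replicate 2 alone for c/chip MDPs. So are results for Rpl39l, Dmc1 and Rec8 between the c/chip cell types. This lone array is assumed to vary like those of the other groups. The other c/chip MDP differences rest on all 4 arrays, among them those of Dnmt1, the markers and genes outside the germ cell list. Tests of whether a genotype effect differed between the progenitors are also given only with all 4. Markers of other cell types differed between the genotypes in MDPs. Of 41 measured, 14 were higher in c/chip MDPs, against 1.26% of all genes, and 2 were lower, against 0.685%. In cMoPs 0 of the 41 passed the test, which there called only 0.0676% of all genes higher and 0.0451% lower. At an unadjusted p under 0.05 there were 2 of the 41 in cMoPs (4.88%, against 4.74% of all genes). In these bulk samples, fewer cells of a type and less RNA per cell cannot be told apart.

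Most of the germ cell genes were dim in both progenitors and both genotypes. By group mean, 6 of 36 (16.7%) lay above the array median in control MDPs, 7 (19.4%) in c/chip MDPs, 5 (13.9%) in control cMoPs and 9 (25%) in c/chip cMoPs, against 49.6% to 49.8% of all genes. Rpl39l, Tdrd7, Tdrkh, Msh5 and Nanos3 were above it in all 4 groups. Adam2 was the sixth in control MDPs, Slc25a31 and Tex14 completed the set in c/chip MDPs, and Slc25a31, Tex15, Dmc1 and Tex14 did so in c/chip cMoPs. Array by array, 24 genes were below the median on all 16 arrays, 3 (Tdrd7, Tdrkh and Msh5) were above it on all 16, and the other 9 were above it on some.

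**Figure D1:**
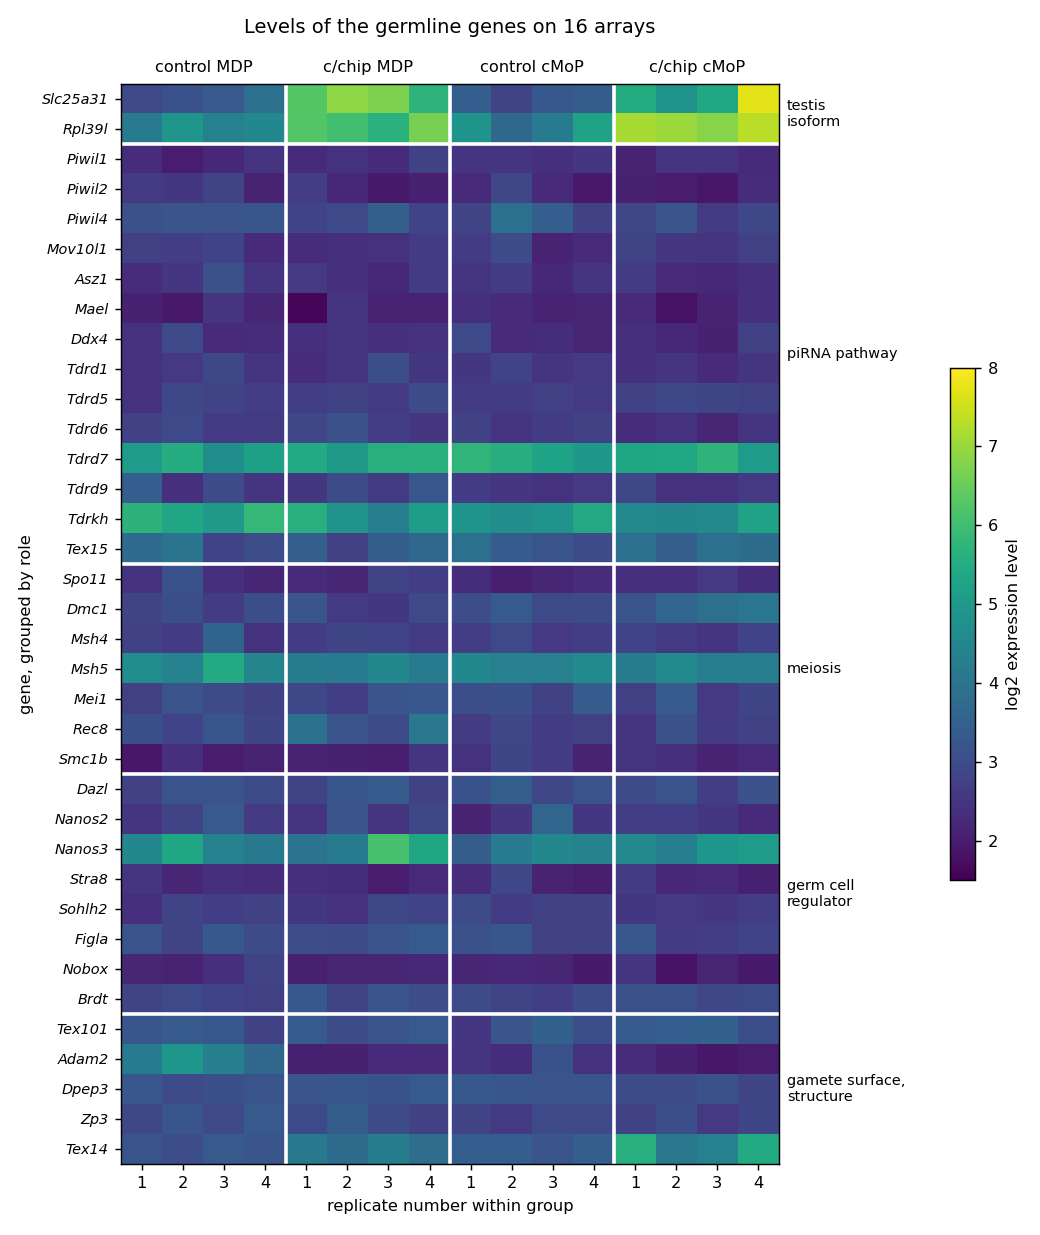
Log2 levels of the 36 germ cell genes (rows, ordered by role) on the 16 arrays (columns, ordered by group), coloured by level. Most rows stay dim in every column, while Slc25a31 and Rpl39l are brighter in the c/chip columns of both cell types and Adam2 is brighter in control MDPs.

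The reduction of Dnmt1 was set against these genes within each progenitor. In MDPs, Slc25a31 and Rpl39l were higher in c/chip cells and Adam2 was lower, at a Benjamini-Hochberg adjusted p under 0.05 over all genes in limma. These are 2 of 36 higher and 1 of 36 lower, against a background of 1.26% of all genes called higher and 0.685% called lower. In cMoPs, Slc25a31, Rpl39l and Tex14 were higher, 3 of 36 against 0.0676% of all genes, and 0 were lower, against 0.0451%. Counted by groups that did not overlap, 3 genes were higher in c/chip MDPs (4.18% of all genes) and 1 lower (2.82%), while in cMoPs 4 were higher (1.94%) and 4 lower (1.93%). The 4 lower in cMoPs were Tdrd1, Tdrd6, Adam2 and Dpep3, all dim in both genotypes, with differences of −0.19 to −0.52. Tdrd5, a tudor protein of germ granules, was the fourth of the higher ones, likewise dim. At an unadjusted p under 0.05 the genes numbered 6 of 36 in MDPs (16.7%, against 14.3% of all genes) and 7 of 36 in cMoPs (19.4%, against 4.74%). The median difference over the 36 genes was 0.00 in MDPs and −0.06 in cMoPs, beside 0.03 and −0.01 over all genes.

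**Figure D2:**
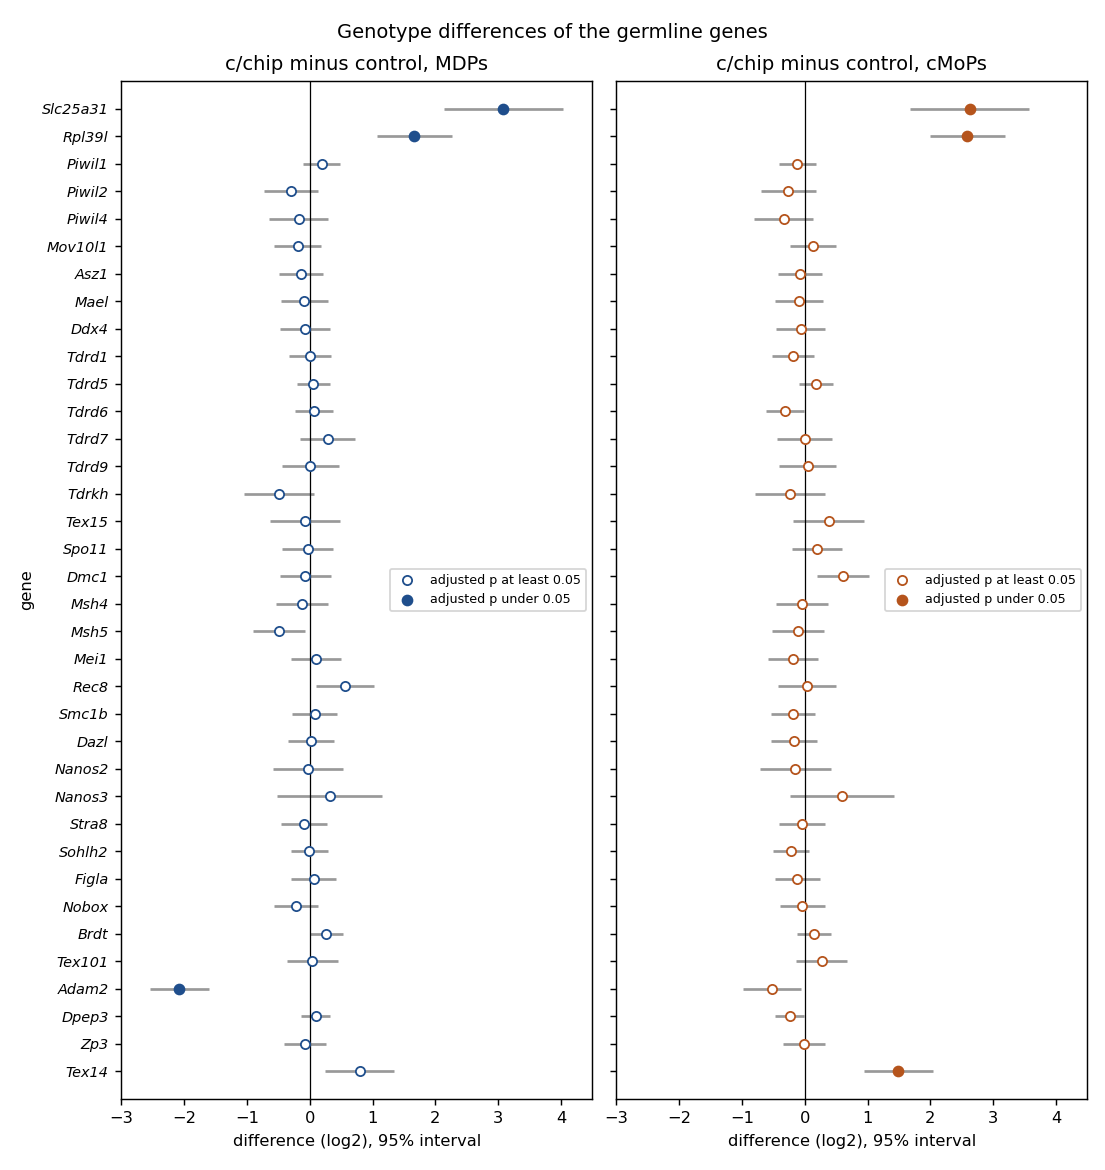
Difference between c/chip and control cells (log2, horizontal axis) for each germ cell gene in MDPs (left) and cMoPs (right), with 95% intervals of the moderated fit from 4 arrays a group. Filled points passed an adjusted p of 0.05: Slc25a31, Rpl39l and Adam2 in MDPs, and Slc25a31, Rpl39l and Tex14 in cMoPs.

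The promoters of the 3 genes that were higher in c/chip cells are shown first, together with those of Ddx4 and Mael, piRNA pathway genes with promoters at least as rich in CpG that stayed dim. Each is the RefSeq window of 300 bases, from 250 before to 50 after the annotated start, 5′ to 3′ on the gene's strand in build GRCm38.p6, with every CpG in capitals. Slc25a31 lies at chr3:40708621-40708920 (plus strand), Rpl39l at chr16:10169978-10170277 (plus), Tex14 at chr11:87404815-87405114 (plus), Ddx4 at chr13:112652261-112652560 (minus) and Mael at chr1:166238695-166238994 (minus).
Slc25a31: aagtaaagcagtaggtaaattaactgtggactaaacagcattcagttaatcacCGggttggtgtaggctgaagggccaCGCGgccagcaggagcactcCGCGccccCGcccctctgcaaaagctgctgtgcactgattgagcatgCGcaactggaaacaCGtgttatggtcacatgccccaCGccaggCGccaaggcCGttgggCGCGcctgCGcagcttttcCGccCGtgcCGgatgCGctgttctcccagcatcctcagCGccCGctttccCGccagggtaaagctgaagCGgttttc
Rpl39l: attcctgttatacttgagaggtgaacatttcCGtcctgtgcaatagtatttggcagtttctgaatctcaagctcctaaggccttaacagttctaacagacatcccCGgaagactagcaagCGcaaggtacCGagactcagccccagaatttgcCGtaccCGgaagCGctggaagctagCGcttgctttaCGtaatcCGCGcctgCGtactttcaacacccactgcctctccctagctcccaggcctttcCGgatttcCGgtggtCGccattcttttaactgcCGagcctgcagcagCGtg
Tex14: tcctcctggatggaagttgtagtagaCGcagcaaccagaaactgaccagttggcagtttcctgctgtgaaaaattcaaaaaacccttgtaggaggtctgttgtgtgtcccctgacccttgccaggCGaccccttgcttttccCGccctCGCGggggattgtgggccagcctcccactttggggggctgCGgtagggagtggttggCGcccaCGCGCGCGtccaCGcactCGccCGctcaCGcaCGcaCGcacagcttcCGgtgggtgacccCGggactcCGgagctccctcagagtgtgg
Ddx4: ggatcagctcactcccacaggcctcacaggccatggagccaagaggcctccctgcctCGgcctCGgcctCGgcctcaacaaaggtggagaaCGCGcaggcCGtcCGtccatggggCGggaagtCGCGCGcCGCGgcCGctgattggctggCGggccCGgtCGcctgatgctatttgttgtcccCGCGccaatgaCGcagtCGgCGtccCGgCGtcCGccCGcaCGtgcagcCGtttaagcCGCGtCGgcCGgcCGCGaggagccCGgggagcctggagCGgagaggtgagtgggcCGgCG
Mael: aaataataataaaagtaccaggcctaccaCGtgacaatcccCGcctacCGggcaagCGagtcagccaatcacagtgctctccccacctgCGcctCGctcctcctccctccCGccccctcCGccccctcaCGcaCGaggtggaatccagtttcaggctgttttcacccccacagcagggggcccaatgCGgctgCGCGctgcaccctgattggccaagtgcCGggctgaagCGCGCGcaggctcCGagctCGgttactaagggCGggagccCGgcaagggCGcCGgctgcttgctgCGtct
These windows hold 22, 17, 20, 38 and 24 CpG dinucleotides, in the order shown. DNA methylation was not measured on these arrays.

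Slc25a31 encodes the ADP/ATP carrier of the mitochondrial inner membrane that male germ cells use, and stands in for the X-linked somatic carrier that is silenced in meiosis. In control MDPs its log2 level was 2.93, 3.15, 3.32 and 3.90 on replicates 1 to 4, and in c/chip MDPs 6.28, 6.89, 6.73 and 5.74. In control cMoPs it was 3.44, 2.83, 3.29 and 3.41, and in c/chip cMoPs 5.53, 4.85, 5.39 and 7.72. All 8 c/chip arrays were above all 8 control arrays, and above the array median, which only 1 control array (MDP replicate 4) passed.

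The difference in MDPs was 3.08 (SE 0.45, 95% interval 2.14 to 4.03, 8.48-fold, limma adjusted p = 0.00151), with no overlap between the groups (exact permutation p = 0.0286, two-sided, the smallest that 4 against 4 arrays allow). With replicate 2 alone for c/chip MDPs it was 3.565 (SE 0.73, limma adjusted p = 0.0416). In cMoPs it was 2.63 (SE 0.45, 1.68 to 3.57, 6.18-fold, adjusted p = 0.0233), and 2.01 without c/chip cMoP replicate 4, the brightest array. The difference between the effects in the 2 progenitors did not pass the test ( −0.46, SE 0.63, adjusted p = 0.886). The cMoP call was lost without any 1 of the control cMoP arrays (adjusted p 0.0654 to 0.0883), in a fit of the 2 cMoP groups alone (0.125), and with c/chip MDPs represented by replicate 2 (0.0525).

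Rpl39l encodes a paralog of the ribosomal protein L39 that is incorporated into ribosomes of male germ cells. It already stood near or above the array median in control cells, at 4.20, 4.88, 4.36 and 4.54 in MDPs and 4.88, 3.70, 4.17 and 5.24 in cMoPs. In c/chip MDPs it measured 6.27, 6.04, 5.65 and 6.67, and in c/chip cMoPs 7.16, 7.03, 6.81 and 7.32. Again the 8 c/chip arrays were above the 8 control arrays, and the c/chip cMoP arrays were tightly grouped (mean 7.08, SD 0.22, n = 4).

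Rpl39l was 3.17-fold higher in c/chip MDPs (1.66, SE 0.28, limma adjusted p = 0.00584) and 6-fold higher in c/chip cMoPs (2.59, SE 0.28, adjusted p = 0.000751). The call in cMoPs held in every alternative run, and that in MDPs in all but the fit with replicate 2 alone (1.55, adjusted p = 0.147). Within c/chip cells it was higher in cMoPs than in MDPs on every array, by 0.92, without passing the test (adjusted p = 0.0933, and 0.327 with replicate 2 alone). The difference between the genotype effects, 0.92 (SE 0.40), did not pass either (adjusted p = 0.547).

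The somatic relatives of both genes did not pass the test between genotypes. Rpl39 differed by −0.56 in MDPs (SE 0.32, limma adjusted p = 0.455) and by 0.00 in cMoPs (SE 0.32, adjusted p = 1). The somatic ADP/ATP carrier Slc25a4 differed by −0.12 in both (SE 0.16) and Slc25a5, the other widely expressed carrier, by 0.03 and −0.14 (SE 0.16). Of 11 paralogs listed for the genes called, 8 were measured and 0 passed the limma test in either genotype comparison, also at an unadjusted p under 0.05. Of all genes, 14.3% in MDPs and 4.74% in cMoPs had such an unadjusted p. The probe sets of Rpl39l and Rpl39 are separate, but how far their probes distinguish the pair cannot be read from the annotation.

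Tex14 encodes a protein of the intercellular bridges that keep dividing germ cells connected. It stood at 3.18, 3.03, 3.33 and 3.22 in control MDPs and at 4.12, 3.79, 4.23 and 3.81 in c/chip MDPs. In control cMoPs it was 3.45, 3.44, 3.21 and 3.46, and in c/chip cMoPs 5.57, 4.10, 4.37 and 5.49. It was thus below the array median on all control arrays and above it on all c/chip arrays. The difference was 1.49 in cMoPs (SE 0.26, 2.8-fold, limma adjusted p = 0.0262) and 0.80 in MDPs (SE 0.26, adjusted p = 0.136), where the arrays did not overlap. With replicate 2 alone the MDP difference was 0.60 (SE 0.44, limma adjusted p = 0.689). The difference between these effects did not pass the test (0.69, SE 0.37, adjusted p = 0.635). Its cMoP call was lost without any 1 of the control cMoP arrays or of c/chip cMoP replicates 1 and 4 (adjusted p up to 0.113), in the fit of the 2 cMoP groups alone (0.164) and with replicate 2 alone for c/chip MDPs (0.0732).

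**Figure D3:**
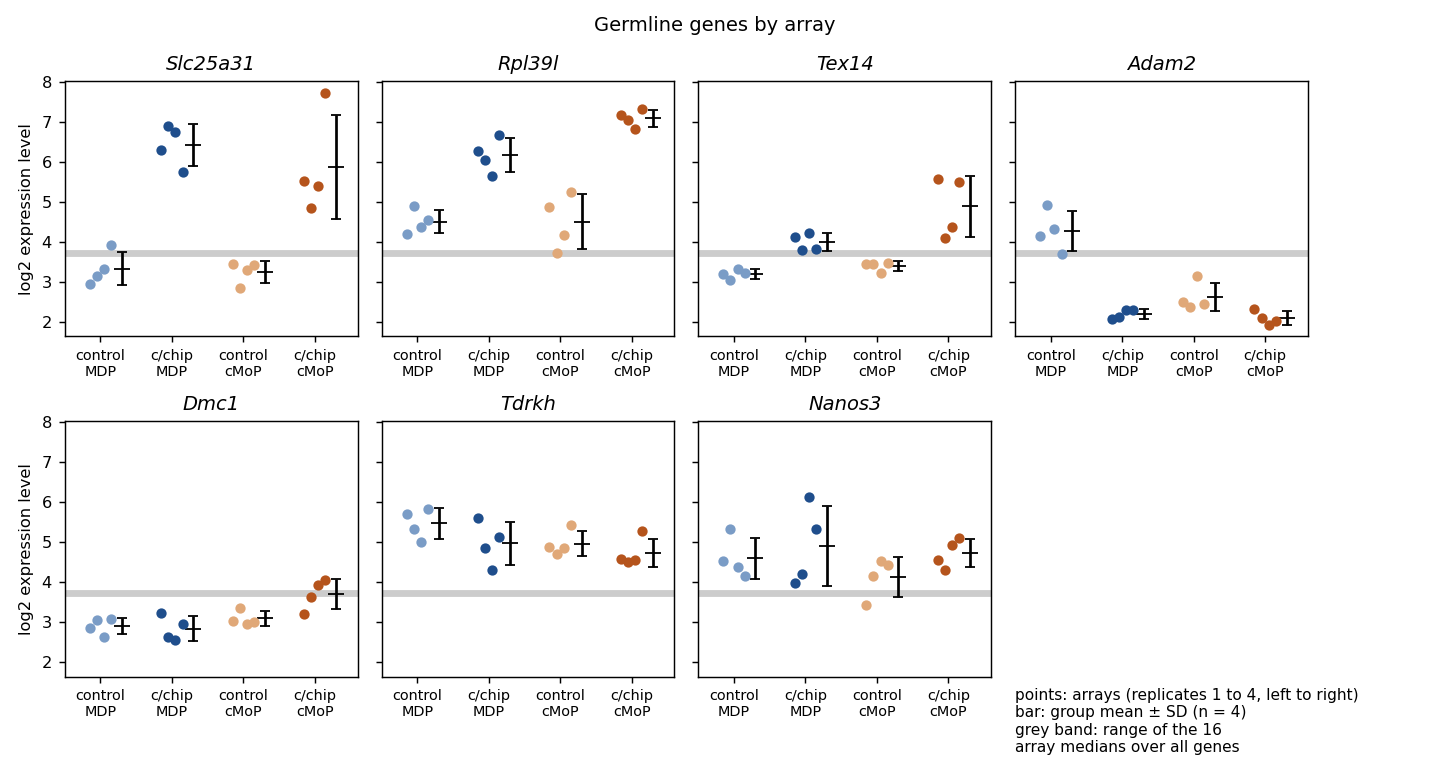
Log2 levels (vertical axis) of selected germ cell genes on each array by group, 4 points a group, with the group mean and SD as a black bar and the range of the 16 array medians over all genes as a grey band. Slc25a31, Rpl39l and Tex14 are higher on c/chip arrays of both cell types, whereas Adam2 stands apart only in control MDPs (mean 4.26, against 2.09 to 2.61 in the other groups).

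Adam2 went the other way. It encodes fertilin beta, a membrane protein of sperm that takes part in binding the egg. In control MDPs it measured 4.15, 4.91, 4.32 and 3.68, and in c/chip MDPs 2.06, 2.10, 2.30 and 2.30. Control cMoPs stood at 2.49, 2.36, 3.13 and 2.45, and c/chip cMoPs at 2.32, 2.10, 1.92 and 2.02. Control MDPs were the only group whose mean lay above the array median, on 3 of 4 arrays.

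Adam2 was 4.21-fold lower in c/chip than in control MDPs (−2.07, SE 0.22, limma adjusted p = 5.73e-05) and, among controls, 3.15-fold lower in cMoPs than in MDPs (−1.66, SE 0.22, adjusted p = 0.000151). In cMoPs the genotype difference was −0.52 (SE 0.22, adjusted p = 1), without overlap between the groups but between levels below the array median. With replicate 2 alone for c/chip MDPs the MDP difference was −2.16 (SE 0.37, limma adjusted p = 0.018). The difference between the genotype effects was 1.56 (SE 0.31) and did not pass the test (adjusted p = 0.0964), though it did without control cMoP replicate 3 or control MDP replicate 4. Some dendritic cell markers differed between the same groups. The mean level of the 7 was 5.05 to 5.67 in control MDPs, 4.13 to 4.48 in c/chip MDPs and 3.89 to 4.43 in control cMoPs, with 2 of 7 called lower in c/chip MDPs (Flt3 −1.96, Siglech −2.75) and 3 of 7 in control cMoPs (Flt3 −3.15, Siglech −2.36, Itgax −2.06). The other 4, Zbtb46, Xcr1, Batf3 and Cd209a, passed in neither comparison, and the first 3 of them were below the array median in all groups. Their part in the Adam2 result was not tested.

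Marker lists that were higher in c/chip MDPs stand beside the MDP results of Slc25a31 and Rpl39l as well. The mean level of megakaryocyte markers was 3.18 to 4.39 in control and 4.99 to 6.42 in c/chip MDPs (4 of 5 higher), that of mast cell and basophil markers 5.15 to 5.73 and 6.75 to 8.18 (5 of 6 higher), and that of neutrophil granule genes 6.43 to 8.96 and 8.85 to 10.77 (4 of 10 higher). For erythroid markers it was 5.53 to 5.76 and 5.54 to 7.86, with 1 of 4 called higher (Epor) and 3 of 4 at an unadjusted p under 0.05. Their part in the MDP results was not tested. In cMoPs none of these markers passed the test in limma, a comparison that called 0.0676% of all genes higher and 0.0451% lower. The neutrophil granule genes differed there by −0.294 to 0.891. The part of the markers in the cMoP results was not tested.

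Among the 14 piRNA pathway genes, 0 passed the test in either genotype comparison. Of all genes, 1.26% were called higher and 0.685% lower in MDPs, and 0.0676% and 0.0451% in cMoPs. With shares this small, 0 of 14 does not set these genes apart from the rest. The Piwi proteins Piwil1, Piwil2 and Piwil4 bind the piRNAs, the helicase Mov10l1 feeds precursors into the pathway, Asz1 sits at the mitochondrial surface where piRNAs mature, and Ddx4 is the germ cell RNA helicase Vasa. Of the 14, 10 were below the median on every array, at levels of 1.61 to 3.45. Ddx4 averaged 2.51 in MDPs of control mice and 2.43 in those of c/chip mice, and 2.44 and 2.37 in the respective cMoPs. Mael, a germ granule protein required for transposon silencing, averaged 2.18, 2.09, 2.25 and 2.17 in the same order. Tdrd6 was the 1 of the 14 at an unadjusted p under 0.05, in cMoPs (−0.31, limma adjusted p = 1). That is 7.14%, against 4.74% of all genes, and in MDPs it was 0 of 14, against 14.3%.

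The exceptions in level were the tudor proteins Tdrd7 and Tdrkh. Tdrd7, which is also known for its role in the eye lens, ranged from 4.73 to 5.77 over all 16 arrays. Tdrkh, which tethers Piwi proteins to mitochondria, measured 5.70, 5.31, 4.99 and 5.82 in control MDPs and 5.58, 4.84, 4.30 and 5.13 in c/chip MDPs. It measured 4.86, 4.70, 4.83 and 5.42 in control cMoPs and 4.57, 4.49, 4.55 and 5.26 in c/chip cMoPs. The genotype groups overlapped in both progenitors, and its difference of −0.49 in MDPs, the largest in size of the piRNA genes, did not pass (SE 0.26, limma adjusted p = 0.423, and −0.61 with 0.578 for replicate 2 alone). Tex15, a nuclear partner of the piRNA machinery, hovered around the median, above it on 6 of 16 arrays.

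Of 18 further piRNA pathway genes listed, 17 were measured. In either genotype comparison 0 of them passed the limma test. That test called 1.26% of all genes higher and 0.685% lower in MDPs, and 0.0676% and 0.0451% in cMoPs. At an unadjusted p under 0.05 were 2 in MDPs (11.8%, against 14.3% of all genes) and 3 in cMoPs (17.6%, against 4.74%).

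The 7 meiotic genes act in making and repairing the DNA breaks of meiosis or in holding sister chromatids together. Spo11 cuts the DNA, Mei1 is needed for the cuts, Dmc1 is the recombinase of meiosis, Msh4 and Msh5 stabilise crossover intermediates, and Rec8 and Smc1b are cohesin subunits of meiosis. None passed the limma test between genotypes, which called 1.26% of all genes higher and 0.685% lower in MDPs, and 0.0676% and 0.0451% in cMoPs. Unadjusted p-values under 0.05 were those of Rec8 and Msh5 in MDPs (28.6% of the 7, against 14.3% of all genes). In cMoPs it was Dmc1 (14.3%, against 4.74%). Of the 7, 4 stayed below the median on every array (1.93 to 3.58), whereas Msh5 was above it on all 16.

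Dmc1 showed the largest genotype difference of this group. It measured 2.84, 3.05, 2.62 and 3.05 in control MDPs and 3.21, 2.61, 2.55 and 2.93 in c/chip MDPs. In control cMoPs it was 3.03, 3.35, 2.95 and 2.99, and in c/chip cMoPs 3.19, 3.61, 3.91 and 4.04. The c/chip cMoP arrays thus reached highest and overlapped with the controls at 1 array. Its genotype difference in cMoPs was 0.61 (SE 0.19, limma adjusted p = 0.657). The c/chip cMoPs and c/chip MDPs overlapped as well (exact permutation p = 0.0571). Dmc1 was above the array median on 2 of the c/chip cMoP arrays and on 0 of the c/chip MDP arrays. Between these dim levels it was 1.82-fold higher in c/chip cMoPs than in c/chip MDPs (0.87, SE 0.19, limma adjusted p = 0.0179). It was the 1 gene of 36 called higher there, against 1.8% of all genes. That call was lost without c/chip cMoP replicate 3 or 4 or c/chip MDP replicate 2 or 3 (adjusted p 0.0532 to 0.0709), in the fit of the 2 c/chip groups alone (0.078) and with replicate 2 alone (0.0948).

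Rec8 was 0.57 higher in c/chip MDPs (SE 0.22, limma adjusted p = 0.223), resting on replicates 1 and 4 (3.96 and 4.10, against 3.22 and 2.96 in the others and 2.81 to 3.23 in controls). With replicate 2 alone it was 0.23 (SE 0.24, adjusted p = 0.82). Within c/chip mice Rec8 was −0.81 in cMoPs relative to MDPs (SE 0.22, limma adjusted p = 0.0541), a difference that 5 of 27 alternatives called, while replicate 2 alone gave −0.47 (adjusted p = 0.473). Msh5 was −0.49 in c/chip against control MDPs (adjusted p = 0.245), and −0.59 with replicate 2 alone (0.543). Outside the 36, 25 of 28 other listed meiosis genes were measured. Of these 4 were higher in c/chip MDPs (Tex12, Hormad2, Stag3 and Syce1), against 1.26% of all genes. In c/chip cMoPs 3 were higher (the first 3 of them), against 0.0676% of all genes. The differences of these called genes ran from 1.20 to 3.21. Of the 25, 0 were called lower in limma, against 0.685% of all genes in MDPs and 0.0451% in cMoPs. The lowest differences among the 25 were −1.45 in MDPs and −0.74 in cMoPs. Counted by groups that did not overlap, 4 were higher and 1 lower in each progenitor. The shares of all genes were 4.18% and 2.82% in MDPs, and 1.94% and 1.93% in cMoPs.

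The germ cell regulators were mostly dim. Dazl, an RNA-binding protein of germ cells, Nanos2 of male germline stem cells, Stra8 of meiotic entry, the transcription factors Sohlh2, Figla and Nobox of early gametes and Brdt, a testis bromodomain protein, were below the median on every array, at 1.83 to 3.61. Dazl averaged 3.04 and 3.06 in control and c/chip MDPs, and 3.16 and 2.99 in the cMoPs. None of the 8 regulators passed the limma test between genotypes, or had an unadjusted p under 0.05. Of all genes, 14.3% in MDPs and 4.74% in cMoPs had such an unadjusted p. The test called 1.26% of all genes higher and 0.685% lower in MDPs, and 0.0676% and 0.0451% in cMoPs.

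Nanos3, an RNA-binding protein needed for the survival of primordial germ cells, was the exception in level, above the median on 15 of 16 arrays. It stood at 4.52, 5.31, 4.37 and 4.13 in control MDPs and scattered from 3.98 to 6.12 in c/chip MDPs (3.98, 4.20, 6.12 and 5.31). Control cMoPs were at 3.41, 4.14, 4.51 and 4.41, and c/chip cMoPs at 4.55, 4.30, 4.92 and 5.08. The genotype groups overlapped in both progenitors. In cMoPs its difference was 0.59 (SE 0.40, limma adjusted p = 1), with an upper 95% limit of 1.43.

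Besides Adam2 and Tex14, the group of gamete surface and structure holds Tex101 and Dpep3, which are anchored at the surface of male germ cells, and Zp3, a protein of the egg coat. These 3 were below the median on all arrays, at 2.53 to 3.52. None of these 3 passed the limma test between genotypes. Dpep3 in cMoPs had an unadjusted p under 0.05 (−0.24), as had 4.74% of all genes. Among 34 measured of 38 other germ cell genes listed, 1 was higher in c/chip MDPs, against 1.26% of all genes. In cMoPs 0 passed, against 0.0676% of all genes called higher and 0.0451% called lower. The gene was that of the sperm acrosome protein Dkkl1 (1.18, SE 0.29, limma adjusted p = 0.0496), whose arrays overlapped between the genotypes.

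For the genes that were not called, the intervals bound the difference in array values. Of the 31 genes called in no comparison, 29 had an upper 95% limit below 1 on the log2 scale in MDPs and 30 in cMoPs. For the 24 genes below the median on every array, the highest upper limit was 0.54 in MDPs and 0.68 in cMoPs. Array values this low are compressed by background, so a dim value is a level not distinguished from background, not a transcript shown to be absent. For the 24 dim genes the limits therefore do not bound the increase in RNA.

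Between the cell types and in the test of the difference between genotype effects, few of the 36 stood out. In control mice Adam2 was the 1 gene called, lower in cMoPs, against 1.71% of all genes called lower there and 2.84% called higher. In c/chip mice Dmc1 was the 1 gene called, and 0 were lower in cMoPs (limma), against 1.49% of all genes. The test of whether a genotype effect differed between the progenitors called 0 of 36 in limma, against 0.0586% of all genes. At an unadjusted p under 0.05 it gave 4 of 36 (11.1%), against 8.52% of all genes.

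Promoter windows were found for 31 of the 36 genes. Their median CpG count was 18 (range 0 to 48), against 8 over the 27025 genes of the table (quartiles 3 and 22). The 3 genes that were higher in c/chip cells, at 17 to 22, lay in the middle of this range and not at its top. Of the genes below the median on every array, 8 had 20 or more CpG dinucleotides (Brdt, Dazl, Ddx4, Mael, Mov10l1, Smc1b, Tdrd1 and Tdrd5), and Tdrd5 had the most of the 31 at 48.

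**Figure D4:**
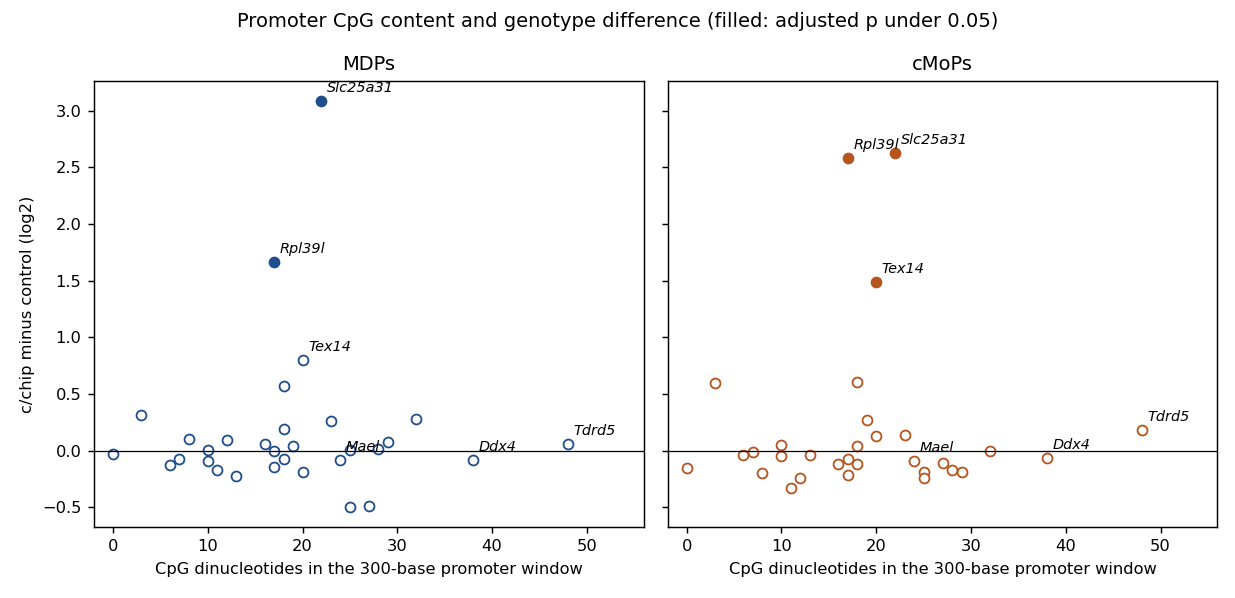
Number of CpG dinucleotides in the 300-base promoter window (horizontal axis) against the difference between c/chip and control cells (log2, vertical axis) in MDPs (left) and cMoPs (right) for the 31 germ cell genes with a window, filled where adjusted p was under 0.05. Slc25a31, Rpl39l and Tex14 rise from the middle of the CpG range (22, 17 and 20), while Ddx4 and Tdrd5, with 38 and 48, lie near a difference of 0.

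A pair of motifs was searched on both strands of each window, CACGTG, the E-box that MAX heterodimers bind, and GGCGGGA, the core of the E2F6 site. Hits were counted separately, with no correction for shared bases, and both motifs contain a CpG, so windows rich in CpG can hold them more often. The E-box was in 9 of 31 windows (29%, against 7.4% of all genes) and the E2F6 core in 6 (19.4%, against 12%). Both were in 4 windows, those of Slc25a31, Ddx4, Mael and Zp3 (12.9%, against 1.32%).

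Counting the annotated start as the first base of the gene, the Slc25a31 window holds the E-box at position −93 and the E2F6 core at 21, and that of Tex14 the E2F6 core at −111. The Rpl39l window holds neither sequence. Ddx4 carries the E-box at −29 and the core at −137, and Mael at −223 and −143. The E2F6 core was in 2 of the 3 genes that were higher in c/chip cells (66.7%) and in 4 of the 28 not higher (14.3%). The E-box was in 1 of the 3 (33.3%) and in 8 of the 28 (28.6%). A match in the letters is not a measured binding site, and the part of the motifs in the differences was not tested.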

How the data were processed

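The values were the deposited log2 expression levels of 41345 probe sets on 16 arrays. Per the submitters' processing notes, the authors used affy, RMA and limma, with versions not given in the sources used here. As a method RMA subtracts background, brings arrays to a common distribution and gives log2 summaries of the probes. Nothing further was scaled. A second deposited table has 16 columns whose names match no label and was not used. Symbols came from the platform annotation: 23521 probe sets had 1 symbol (used), 1820 several and 16004 none. The design text names an earlier array than that annotation does. The probe set with the highest mean was kept per symbol, which left 22180 genes. Groups came from source names and genotypes, since the control cMoP titles carry both genotype names. The number of arrays limits the precision.

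All arrays entered a single linear model of 4 group means in R 4.3.3 with limma 3.58.1 (lmFit, eBayes, prior 4.72 degrees of freedom), so all groups share the spread. P-values were adjusted by Benjamini-Hochberg over all genes, threshold 0.05. SDs are over 4 arrays. The fit was also run on simulated data with independent normal noise and differences added in c/chip MDPs only. Those data lack the background compression and the mixed Xist and Y-linked transcripts of the real arrays, so they do not test these limits. Exact permutation tests used the 70 arrangements of 4 against 4 arrays. Values on all arrays are given for genes called between genotypes and for the gene of each role with the largest genotype difference, and others by range. Those of Dmc1, called between cell types, and Rec8 are given too, the latter chosen after its values were seen. The genes and lists were chosen with earlier results of these data known. Promoter windows came from RefSeq (GRCm38.p6), using the window with most CpG per gene, with Python 3.11.15. Alternatives are given in the closing section.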

Additional observations from a re-analysis of the deposited data

Results flagged for a closer look

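Of 144 tests for a single array standing apart in a group of 4, 5 were positive, and chance gives about 1 in 20. In c/chip cMoPs, Tdrkh was highest on replicate 4 at 5.26, with the nearest array at 4.57 (gap over range 0.896). Msh5 was highest there on replicate 2, at 4.58 against 4.28 (0.924). In c/chip MDPs, Smc1b was highest on replicate 4, at 2.54 against 2.13 (0.84). In control cMoPs, Nobox was lowest on replicate 4, at 1.98 against 2.21 (0.878), and Tex14 was lowest on replicate 3, at 3.21 against 3.44 (0.912). The Tex14 array was the lowest of the control cMoPs and the c/chip cMoPs lay higher, so leaving it out could not make the groups overlap. Without it the limma call of Tex14 in cMoPs was lost.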

How the results depend on the processing

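The 3 genes called between genotypes in MDPs were 3 without any 1 array, and 2 to 3 under the other alternatives. In cMoPs the 3 became 1 in a fit of only the 2 groups and 1 with c/chip MDPs represented by replicate 2 alone, a fit added after the data were seen, and 1 to 3 without any 1 array. Between cell types in control mice the 1 became 0 once the dimmest 40% of genes were left out, which kept 9 of the 36 genes and not Adam2 (1 to 1 without any 1 array). In c/chip mice the 1 became 2 with a trended and robust fit and 2 with array weights (Rec8 added, lower in cMoPs), 0 without the dimmest genes, 0 in the fit of only the 2 groups and 0 with replicate 2 alone (0 to 3 without any 1 array). The difference between genotype effects called 0 to 1 without any 1 array. Beyond the fits that left out arrays or groups, the cause of these changes was not tested. The labels do not say what a replicate number marks. Deviations of same-numbered arrays from their group means correlated at −0.04 to 0.19 over 24 pairs. The 3 pairs over 0.1 were replicates 1, 2 and 3 of control and c/chip cMoPs (0.11, 0.19 and 0.15, against 0.03 for replicate 4), and 11 of the 24 correlated best with their own number. The numbers were not taken as a pairing, and whether same-numbered cMoP arrays share a source was not tested. With a replicate block the genes called numbered 3 in MDPs, 3 in cMoPs, 1, 1 and 0, as without it, and as with replicates 1 and 2 against 3 and 4 as a term. With the Y-linked level as a covariate the same genes of the 36 were called in every comparison. Counts above the array median moved by at most 1, and 0 differences among the genes called changed sign. Signal over background is the limit for the 24 genes that were dim on every array.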
